A study of Mus musculus with 107 samples.

Results

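The cytosolic ribosomal protein genes encode the protein part of the ribosome outside mitochondria. They were chosen by symbol alone, as genes named Rpl or Rps followed by a number, an optional a or x, together with the acidic stalk genes Rplp0 and Rplp2 and the laminin receptor gene Rpsa. A gene was read from its brightest probe set that carries a single gene symbol. This gave 42 members of 18194 genes, with 22 in the large and 20 in the small subunit. RefSeq lists 76 mouse genes that match the rule, and the 34 without such a probe set, Rplp1 among them, were not analysed here.

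The arrays measured RNA from mouse brain and spinal cord after purification of tagged ribosomes (TRAP, for translating ribosome affinity purification). A transgene on a bacterial artificial chromosome puts a green fluorescent tag on the ribosomal protein L10a in one cell type, so that the ribosomes of those cells and the mRNA they carry can be pulled out of whole tissue. The unbound RNA left behind by the purification served as the tissue's control. TRAP RNA of 24 populations filled 76 arrays and unbound RNA 31. Each population had 3 TRAP arrays, except cortical astrocytes with 4 and Purkinje neurons with 6. All animals carried a tagging transgene, including those that gave the unbound RNA, and differed by the gene whose regulatory region drives it. The TRAP arrays of cortical astrocytes and of Purkinje neurons each came from 2 transgenic lines, and every other population's from 1. Astrocytes of cortex and of cerebellum were labelled through Aldh1l1, mature oligodendrocytes of both tissues through Cmtm5, mixed oligodendroglia of both tissues through Olig2, and Bergmann glia through septin4. The Chat line labelled cholinergic neurons of striatum, basal forebrain and spinal cord and the brainstem motor neurons. A Drd1 line and a Drd2 line labelled medium spiny neurons of striatum. Cortical neurons were labelled through Cck, Cort, Pnoc, Ntsr1 (layer 6), Glt25d2 (layer 5b) and a layer 5a driver. Cerebellar neurons were labelled through Pcp2 (Purkinje), Grm2 (Golgi), Grp (unipolar brush), Lypd6 (stellate and basket) and Neurod1 (granule). The unbound RNA came from cortex on 9 arrays, from cerebellum on 7, from striatum on 6, and on 3 arrays each from spinal cord, brainstem and basal forebrain. Every population of a tissue was compared with the same unbound arrays. For 7 populations none of those arrays came from their own line: Cort+, Golgi, unipolar brush, stellate and basket and granule neurons, cerebellar astrocytes and cerebellar mixed oligodendroglia. Ages and sexes of the animals are not given in the labels used here.

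Each ribosome needs 1 copy of nearly every ribosomal protein, and cells make these proteins in matched amounts. Their mRNAs are among the most abundant in a cell. Most vertebrate ribosomal protein mRNAs begin with a C followed by an unbroken run of pyrimidines, the terminal oligopyrimidine (TOP) motif, through which the mTOR pathway moves them between translated and untranslated pools. Because TRAP collects mRNA through the ribosome, a difference between TRAP and unbound RNA mixes the level of an mRNA in the labelled cells with the share of it that ribosomes hold. In bulk RNA, fewer cells of a type and less RNA per cell cannot be told apart.

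The first bases of some of the members named below are shown for this motif, read from RefSeq promoters of assembly GRCm38.p6. Each line holds 30 bases of the coding strand, 10 before and 20 from the annotated start, and capitals mark the pyrimidine run that begins at that start.
Rps6, chr4:86857348-86857377, minus strand: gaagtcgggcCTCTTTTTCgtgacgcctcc
Rps10, chr17:27635225-27635254, minus strand: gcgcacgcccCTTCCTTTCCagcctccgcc
Rplp2, chr7:141447641-141447670, plus strand: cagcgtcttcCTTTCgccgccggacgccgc
Rps15, chr10:80292421-80292450, plus strand: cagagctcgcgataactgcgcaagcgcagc
Rps25, chr9:44407704-44407733, plus strand: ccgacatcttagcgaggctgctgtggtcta
Rpl37, chr15:5116603-5116632, plus strand: cctgggcggaagcttatccacaggaagtgg
Rps6, Rps10 and Rplp2 have a C at the annotated start that is followed by at least 4 bases that are C or T. The other 3 have no pyrimidine at that position. Rpl10a, Rplp0, Rpsa, Rpl11, Rps26 and Rpl4, also named below, had no such start and are not shown. The table holds 43 promoters of 37 members. Such a start was found in 8 of them (18.6%), against 823 of all 32851 promoters (2.51%), on the coding strand. Within 10 bases on either side of the start, a C followed by 4 bases C or T lay in 22 member promoters (51.2%), against 25.5% of all promoters. Annotated starts can lie some bases away from the true start, so an absent match says only that these letters are not in this window.

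Under the main scaling, ribosomal protein mRNAs had small median differences between TRAP and unbound RNA in most populations. Values are log2 of the deposited intensity after each group was scaled on 18 control probe sets. The members' median difference, TRAP minus unbound, ran from -0.63 in Drd2 medium spiny neurons to 0.73 in cortical mixed oligodendroglia, and lay between -0.3 and 0.3 in 15 of the 24 populations. A call needed at least a 2-fold difference and, with limma and Benjamini-Hochberg adjustment over all genes, an adjusted p under 0.05. Of 939 tests of a member in a population, 79 were called higher in TRAP RNA (8.41%, against 18.4% of tests over all genes) and 52 lower (5.54%, against 32.4%). The 79 include 3 calls of Rps27, which passed the expression minimum in those populations through its TRAP level alone. Both member shares lay below the background, a description with no test. No TRAP array overlapped an unbound array in 275 of these tests (29.3%, against 62.8% over all genes). After quantile normalization over all arrays, 104 tests were called higher (11%, against 23.2%) and 57 lower (6.05%, against 21.8%). The counts depend on the scaling: centring each array on its median gave 357 called higher (38%, against 24.7%), and no further scaling gave 95 called lower (10.1%, against 31.7%).

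**Figure D1:**
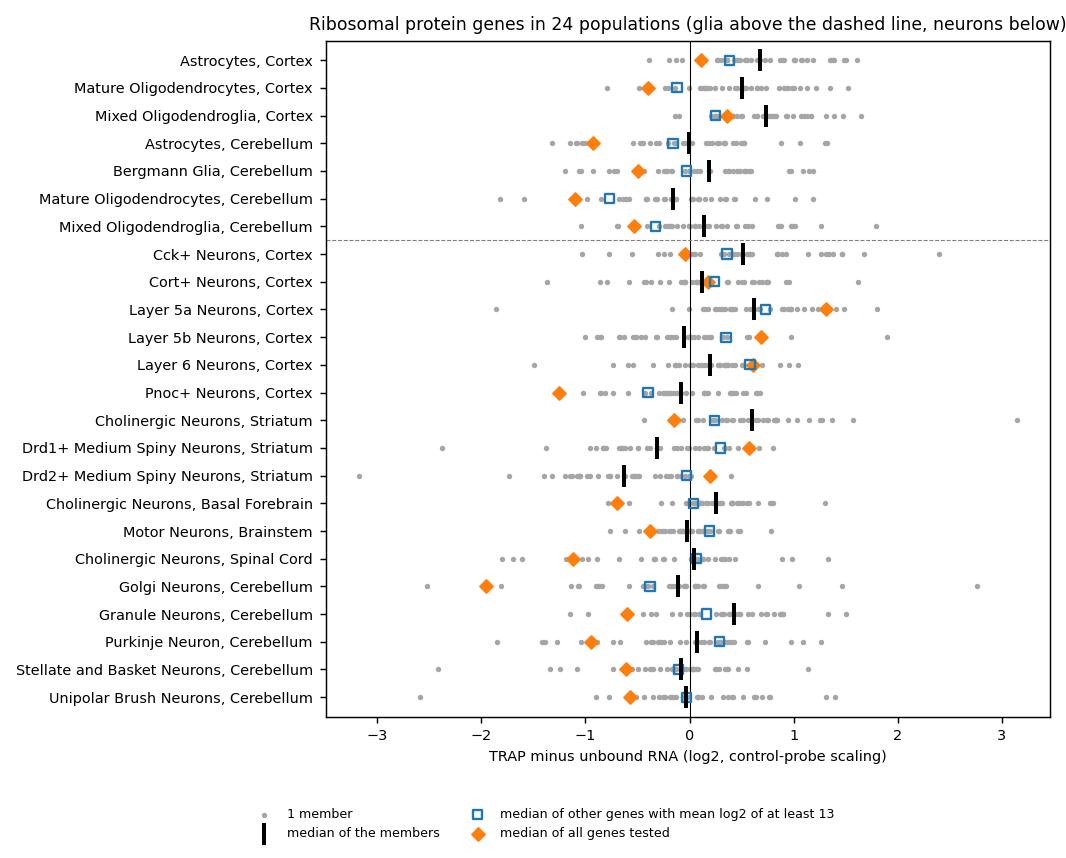
TRAP minus unbound RNA (log2, x axis) in the 24 populations, glia above the dashed line and neurons below it. Grey points are single members, black bars their median, blue squares the median of the other genes with a mean log2 value of at least 13 and orange diamonds the median of all genes tested; the black bars stay between -0.63 and 0.73, while the diamonds spread from -1.96 to 1.31.

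The calls were unevenly spread over the members. Rps15, Rps25, Rpl37 and Rps6 made 46 of the 131 calls, and 12 members were called nowhere: Rpl6, Rpl7, Rpl13a, Rpl38, Rpl41, Rps2, Rps3, Rps4x, Rps7, Rps14, Rps28 and Rps29. The probe sets differed widely in signal: 32 members had a mean log2 value of at least 13 over all arrays, as did 416 other genes, while Rps25 (8.49), Rps6 (8.75) and Rpl37 (9.29) were read from weak probe sets. Among members with a mean of at least 12, a selection made after seeing the data, 50 of 792 tests were called higher (6.31%, against 11.2% over all genes that bright) and 27 lower (3.41%, against 15.4%). The Rpl12 and Rps16 probe sets lay near the floor in every group (means of 2.63 and 2.17) and were not tested.

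Levels of the strong members also moved together over populations. Over the 24 TRAP populations after quantile normalization, the SD of a strong member's level had a median of 0.42, against 0.53 for the other strong genes. The median pairwise Pearson correlation was 0.50 among the 32 strong members and 0.02 among the 416 other strong genes over those 24 populations, which share arrays, amplification and normalization sets within a population. Another 35 probe sets of 18 members gave a TRAP minus unbound difference of the same sign as the chosen probe set in 91.9% of comparisons, with a median gap of 0.28. The large-subunit median difference was above the small-subunit median in 23 populations, and in cerebellar astrocytes, the exception, the large-subunit median relative to all genes was 0.92 and the small-subunit median 1.01.

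Which populations stood highest or lowest was read against the other strong genes, since the median of all genes shifted by -1.96 to 1.31 between TRAP and unbound RNA and differs between scalings. The 32 strong members had a median above the other strong genes by 0.60 in mature oligodendrocytes of cortex (27 of 32 members above) and by 0.60 in those of cerebellum (31 of 32). In mixed oligodendroglia the values were 0.48 in cortex (28 of 32) and 0.44 in cerebellum (29 of 32), and in cortical Pnoc+ neurons 0.46 (27 of 32). At the other end, the median was -0.59 in Drd1 (5 of 32 above) and -0.55 in Drd2 medium spiny neurons (1 of 32), -0.39 in layer 5b (4 of 32) and -0.38 in layer 6 neurons (2 of 32). All 4 oligodendroglial populations therefore lay above the other strong genes, and both medium spiny populations below them. These are descriptions with no test. Relative to all genes tested after quantile normalization, the same 4 oligodendroglial populations stood at 0.32 to 0.58 and the medium spiny populations at -0.65 (Drd1) and -0.72 (Drd2).

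In TRAP RNA, 6 of 6 oligodendrocyte markers were called higher in both cortical oligodendroglial populations and 4 of 6 in both cerebellar ones. All 8 astrocyte markers were called higher in cortical astrocytes and 6 of 8 in cerebellar astrocytes and in Bergmann glia. Of 6 neuron markers, 4 were called lower and 0 higher in Golgi neurons, where 70.4% of all genes were lower. In Purkinje and in stellate and basket neurons 4 were lower and 1 higher (against 49.2% and 38.4% of all genes lower). By contrast, 3 were higher and 0 lower in Drd1 medium spiny and layer 5b neurons. In mature oligodendrocytes of both tissues 5 were lower, with a median level of 11.77 in cerebellar TRAP RNA. In every other glial population all 6 were lower. Other cells' markers were also called in some neuronal TRAP samples. In layer 5a neurons 7 of 8 astrocyte and 5 of 7 microglial markers were called higher, where 60.7% of all genes were. In layer 5b neurons 4 of 6 vessel markers were called higher, with no share over all genes given here. Their part in the members' values was not tested. The Gapdh 3′ probe set exceeded the 5′ probe set by 1.13 to 3.77 over TRAP populations and by 2.01 to 3.16 over unbound sets. Over the 24 populations the TRAP minus unbound difference of this measure correlated with the members' median relative to all genes at r = 0.23, and at r = -0.06 where the median is taken relative to strong genes, and the actin measure gave 0.40 and 0.04 and the 18S level -0.38 and -0.18, a description over populations that share unbound arrays.

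In 5 of the 9 cortical populations, most calls were upward, though Cck+ neurons were the one among them where the members' share lay above that of all genes. There 9 of 39 members were called higher in TRAP RNA and 1 lower (23.1% higher, against 15.3% of all genes). In cortical astrocytes 12 of 39 were called higher (30.8%, against 33%), in mixed oligodendroglia 9 (23.1%, against 31.8%), in mature oligodendrocytes 6 (15.4%, against 15.7%) and in layer 5a neurons 10 (25.6%, against 60.7%). More members were called lower than higher in 7 populations of other tissues, the 2 medium spiny ones among them. In the spinal cord cholinergic neurons 5 of 39 were lower and 1 higher (12.8% lower, against 53.4% of all genes). In Purkinje neurons 5 were lower and 2 higher (against 49.2%), in cerebellar astrocytes 5 and 3 (against 48.6%), in stellate and basket neurons 4 and 1 (against 38.4%), and in Golgi neurons, of 40 members, 5 and 3 (against 70.4%). Outside striatum, each of these downward shares lay below that of all genes. The 3 called higher in Golgi neurons include Rps27, which passed the expression minimum there through its TRAP level alone. Rpl11, a large-subunit protein that also binds Mdm2, was called higher in 4 of 24 populations, the largest difference being 1.65 in cortical mixed oligodendroglia (adjusted p = 2.72e-10). Rps26, which lies near the mRNA exit channel, was called higher in 5, by up to 1.68 in Cck+ neurons (adjusted p = 3.99e-11), and lower in Drd2 neurons (-1.32, adjusted p = 3.45e-07). Over all genes 18.4% of tests were called higher, so the upward counts of Rpl11 and Rps26 lie near the background. Rps10, a protein of the small-subunit head, was called higher in 6 populations and lower in both medium spiny ones, and its 1.52 in cortical mature oligodendrocytes also passed the test against the family median (1.04, adjusted p = 1.59e-09).

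In striatum, the members called in medium spiny neurons were all lower in TRAP RNA and those called in cholinergic neurons all higher, but under control-probe scaling the Drd2 share alone exceeded that of all genes. Drd2 medium spiny neurons, the striatal output cells of the indirect pathway, had 12 of 39 members called lower in TRAP than in unbound RNA and 0 higher (30.8% of members, against 13% of all genes called lower). The Drd1 neurons of the direct pathway had 2 called lower (5.13%, against 8.2%). Striatal cholinergic interneurons, compared with the same 6 unbound arrays, had 7 of 40 called higher (17.5%, against 23.2% of all genes) and 0 lower. The 7 include Rps27, which passed the expression minimum through its cholinergic TRAP mean alone (7.36, against 4.21 in unbound RNA). Its call there is therefore no support. After quantile normalization, 12 members were called lower in Drd2 (against 13.7% of all genes) and 13 in Drd1 neurons (against 13.9%).

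The 3 populations were then compared directly within TRAP RNA, a contrast chosen after seeing the data, with the mean of the Drd1 and Drd2 populations set against the cholinergic one. Of 40 members, 18 were called lower in medium spiny neurons and 0 higher (45% of members, against 19.2% of all genes called lower). The members' median difference was -0.95, while that of all genes was 0.55 and that of the other strong genes -0.16. In all 18 called members every medium spiny array lay below every cholinergic array, as in 30 members in all. The share of all genes without overlap was not counted for this contrast, so this count is not particular to the members. Rps27, among the 18 called, lay under the expression minimum of 6 in both medium spiny populations. It entered the test through the cholinergic population alone, so its call is no support. Quantile normalization gave 16 called lower (against 26.1%) with a median of -0.82, and centring each array on its median gave 36 called lower (against 32.1%), with the other strong genes at -0.89.

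Rpl37, a zinc-binding protein of the large subunit, differed most. Its TRAP values were 7.80, 7.80 and 8.16 in Drd1 and 6.98, 7.10 and 7.31 in Drd2 neurons, against 11.45, 11.64 and 11.64 in cholinergic neurons. The striatal unbound arrays ran between them, from 9.69 through a median of 10.34 to 10.82. Medium spiny neurons were lower by 16.6-fold (-4.05, limma adjusted p = 1.38e-25), with no overlap. Against unbound RNA the difference was -3.18 in Drd2 (adjusted p = 6.70e-19) and -2.38 in Drd1 neurons (adjusted p = 2.49e-13), against 1.27 in cholinergic neurons (adjusted p = 7.95e-06).

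Rps10 read 12.24, 12.39 and 12.83 in Drd1 and 12.10, 12.15 and 12.16 in Drd2 neurons, against 15.06, 15.06 and 15.23 in cholinergic neurons. All medium spiny arrays lay at least 2 log2 units below the cholinergic ones, a 6.97-fold difference (-2.80, adjusted p = 1.19e-15), while the 6 unbound arrays ran from 12.99 through 14.19 to 14.44. Rps6, whose protein is the phosphorylated target of S6 kinase, read 8.29, 8.32 and 8.32 in Drd1 and 7.71, 7.71 and 7.76 in Drd2 neurons, against 10.06, 10.09 and 10.10 in cholinergic neurons. It was lower by 4.18-fold in medium spiny neurons (adjusted p = 9.51e-19). Rps15, a small-subunit protein at the head of the particle, read 12.56, 12.94 and 12.95 in Drd1 and 12.38, 12.59 and 12.78 in Drd2 neurons, against 14.41, 14.90 and 14.93 in cholinergic neurons. The groups did not overlap there either (4.12-fold, adjusted p = 9.05e-09). Rpl10a (0.05), Rps3 (0.07) and Rps25 (0.48) had differences above 0 and were not called.

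**Figure D2:**
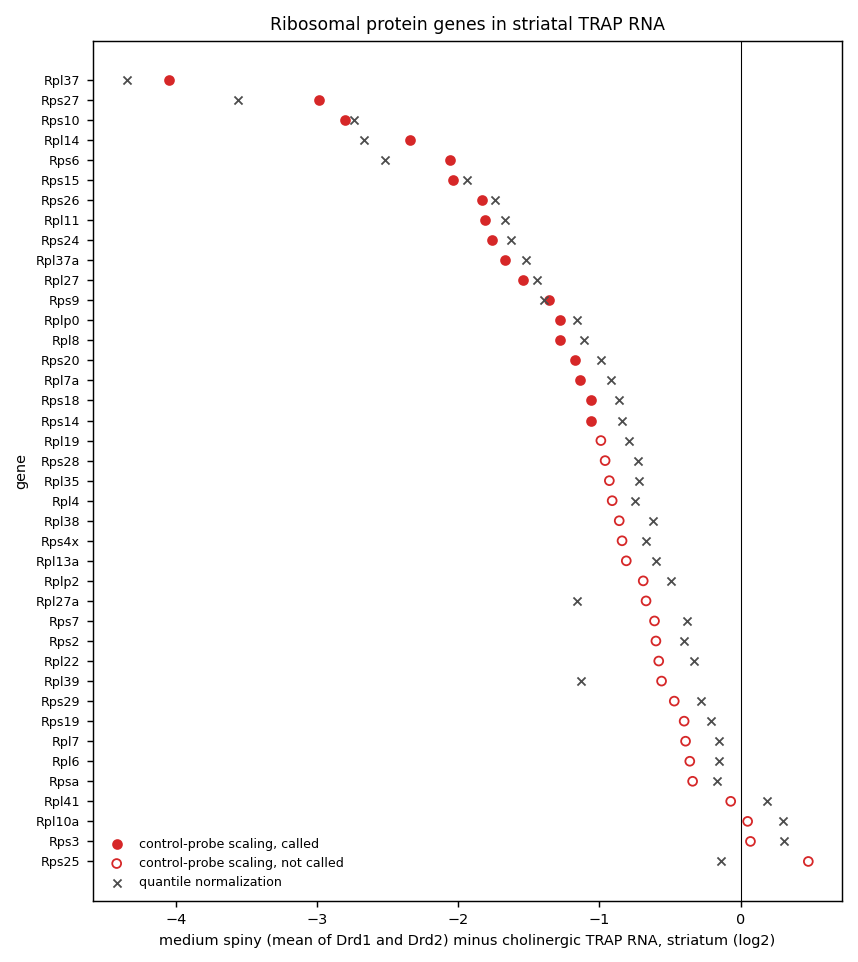
Medium spiny (mean of Drd1 and Drd2) minus cholinergic TRAP RNA (log2, x axis) for the 40 members tested, with filled points for members called under control-probe scaling, open points for those not called and crosses for quantile normalization. The 18 filled points all lie left of 0, Rpl37 farthest at -4.05, while Rpl10a (0.05), Rps3 (0.07) and Rps25 (0.48) lie right of it.

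The measures of other cells and of RNA quality were close in these 3 populations for some markers and apart for others. Oligodendrocyte markers had median levels of 7.97 in Drd1, 7.67 in Drd2 and 7.82 in cholinergic TRAP RNA. Astrocyte markers had median levels of 7.51 in Drd1 and 7.63 in Drd2, against 4.45 in cholinergic TRAP RNA, where 5 of the 8 lay under 6. The Gapdh 3′ minus 5′ difference was 2.40 in Drd1 and 2.59 in Drd2, against 2.00 in cholinergic TRAP RNA. The 18S RNA probe sets averaged 14.58 in Drd1 and 12.99 in Drd2, against 14.84 in cholinergic TRAP RNA. Their part in the result was not tested.

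Rpl10a encodes the protein that carries the tag, and asking whether its mRNA departs from the rest of the family needed a fit in which each array was centred on the median of the members. Rpl10a passed the 2-fold call against the family in none of the 24 populations. At an adjusted p under 0.05 with no fold minimum it was higher than the family in 12, lower in 2 and did not pass in 10. By that rule 28.9% of member tests were higher and 25.7% lower, against 27% and 45.7% of tests over all genes. Other members were higher more often, such as Rps26 in 16 populations and Rps10 in 15, while Rps25 and Rpsa were higher in 0. Without replicate 3 of each TRAP population Rpl10a was higher in 7. With all probe sets of a gene averaged it was higher in 4 and lower in 11. Rpl10a has 1 probe set, so in that setting its own values stayed and the family median it was set against differed. In Drd1 neurons Rpl10a exceeded the family median by 1.15, 1.53 and 1.58, against 0.21 to 0.72 with a median of 0.44 in striatal unbound RNA. These arrays did not overlap, and the difference was 0.97 (1.96-fold, limma adjusted p = 1.12e-12). The unbound arrays of the Drd1 line itself stood at the top of that range, at 0.58 and 0.72. In Cort+ neurons the values were 0.95, 0.98 and 1.01, against -0.04 to 0.50 with a median of 0.10 in cortical unbound RNA (0.82, adjusted p = 1.82e-10). In granule neurons they were 1.03, 1.07 and 1.37, against 0.29 to 0.87 with a median of 0.57 in cerebellar unbound RNA (0.59, adjusted p = 8.64e-07). Each of these TRAP populations thus lay above all unbound arrays of its tissue, but Cort+ and granule neurons had no unbound arrays of their own line. The lowest value was that of the striatal cholinergic neurons, with 0.00, 0.09 and 0.10 and a difference of -0.39 (adjusted p = 0.00103). Against the 2 unbound arrays of its own line, at 0.21 and 0.32, the difference was -0.20 and did not pass (adjusted p = 0.125). Unipolar brush neurons stood at -0.33 (adjusted p = 0.00487). Whether the Rpl10a probe set also reads the transgene's mRNA was not tested.

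**Figure D3:**
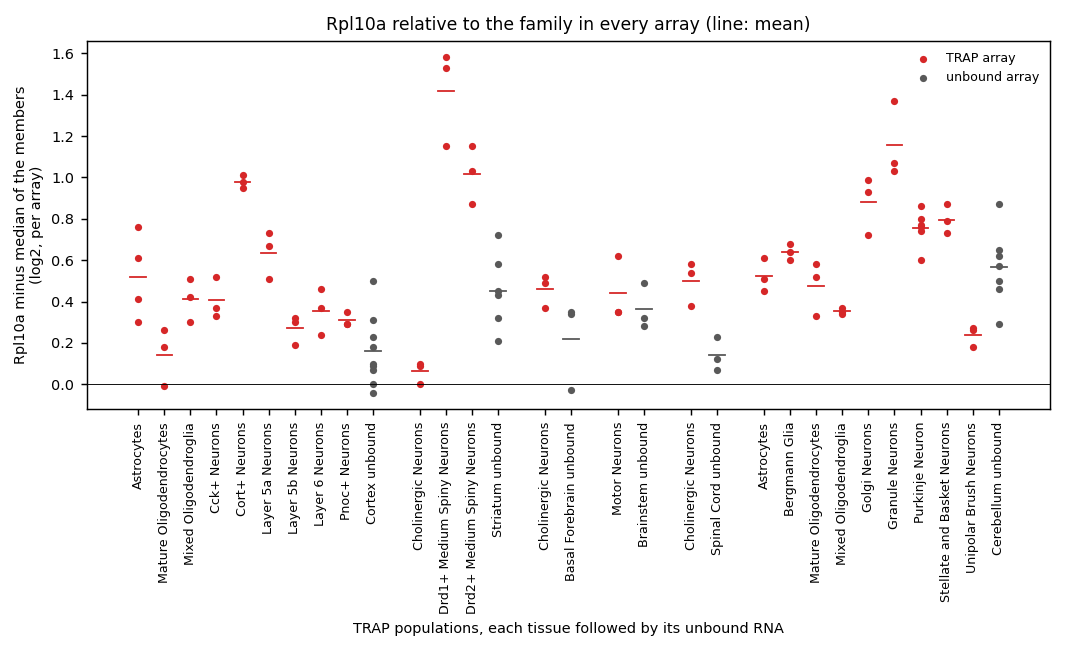
Rpl10a minus the median of the ribosomal protein genes (log2, y axis) on each TRAP array (red) of the 24 populations and each unbound array (grey) of the 6 tissues, with a line at each group's mean. Drd1 medium spiny neurons lie highest against their tissue, at 1.15 to 1.58, and striatal cholinergic neurons lie below theirs, at 0.00 to 0.10.

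Against the family median 35 of the 939 member tests were called higher (3.73%, against 16.6% over all genes) and 40 lower (4.26%, against 34.8%). The 35 include 3 calls of Rps27, which was tested only where its TRAP level passed the expression minimum. With all probe sets of a gene averaged, 8 were called higher (0.871%, against 13.1%) and 150 lower (16.3%, against 41.5%), and with quantile normalization before centring 69 were called higher (7.32%, against 24.3%). The stalk genes, whose proteins recruit elongation factors to the ribosome, differed from each other. Rplp2 was called nowhere against the family, with differences of -0.19 to 0.64. Rplp0, the anchor of the stalk, was called lower against the family in spinal cord cholinergic neurons (-1.25), Purkinje neurons (-1.13) and Pnoc+ neurons (-1.01). In the spinal cord its TRAP values were 12.02, 12.33 and 12.64, against 13.80, 13.97 and 14.04 in unbound RNA, with no overlap (3.04-fold lower, adjusted p = 2.77e-06). In Purkinje neurons it ran from 12.42 through 12.77 to 13.09, against 13.52 through 13.91 to 14.90 in cerebellar unbound RNA, again with no overlap (2.42-fold lower, adjusted p = 5.89e-08). It was called higher, before centring on the family, in layer 5a neurons (1.41) and cortical astrocytes (1.39).

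Rpsa, a small-subunit protein that also serves as a laminin receptor precursor, lay below the family in astrocytes of cortex (-1.03) and cerebellum (-1.21), Bergmann glia (-1.20), Purkinje neurons (-1.25) and stellate and basket neurons (-1.07). In Purkinje TRAP RNA its 6 values ran from 12.18 through 12.44 to 12.71, against 13.61 through 13.78 to 14.18 in cerebellar unbound RNA. In cerebellar astrocytes they were 12.42, 12.56 and 12.57, and in Bergmann glia 12.48, 12.60 and 12.82. All of these arrays lay below the 7 unbound arrays that the 3 populations share, by 2.62-fold in Purkinje neurons (adjusted p = 7.12e-13), 2.50-fold in cerebellar astrocytes (adjusted p = 6.10e-09) and 2.30-fold in Bergmann glia (adjusted p = 9.50e-08). In cortical astrocytes the TRAP values, 12.63 at the lowest with a median of 12.88, overlapped the unbound range of 12.31 to 13.62, and the call there arose only after centring on the family, which itself stood higher in TRAP RNA.

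Rps15 was called higher against the family in 9 populations, which are all 9 cerebellar ones. They share 7 unbound arrays, in which Rps15 ran from 11.65 through 12.15 to 13.74, so these are not 9 independent results. The largest difference was that of Golgi neurons, with 13.56, 13.57 and 14.44. Only the highest unbound array, that of the mature oligodendrocyte line at 13.74, reached into their range (1.46, adjusted p = 8.63e-06, and 1.89 against the family, adjusted p = 1.29e-15). The second Rps15 probe set gave a difference of the same sign in all 24 populations. When the probe sets of each gene were averaged, Rps15 was called higher against the family in 0 populations. That setting also averages the other members and so changes the family median.

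Rpl37 was called higher against the family in 6 populations, all cerebellar, and lower in the 2 medium spiny populations. With quantile normalization before centring it was called higher in 12, of which 9 were cerebellar, and lower in 4. With averaged probe sets it was called higher in 0 and lower in 4. Rpl37 has 1 probe set, so in that last setting its own values stayed and the family median differed. In cerebellar mixed oligodendroglia it read 10.61, 10.61 and 10.65, against 7.98 through 8.63 to 9.69 in the shared unbound arrays. Every TRAP array lay above every unbound one (3.46-fold, adjusted p = 8.80e-10). Rpl37 thus had opposite differences in cerebellum and in medium spiny neurons, each against the unbound RNA of its own tissue. The difference between these differences was not tested.

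Rps25, a small-subunit protein known for its part in ribosome recruitment by viral internal entry sites, was the member most often called below the family with the 2-fold minimum. At an adjusted p under 0.05 with no fold minimum, Rpsa was lower in 18 populations and Rps25 in 17. Rps25 was called lower in 15 populations, all 9 cerebellar ones among them, by a rule that called 34.8% of tests over all genes lower. The cerebellar populations share 7 unbound arrays, so these are not 9 independent results. Rps25 averaged 10.22 on those arrays, against 7.69 to 8.83 in the unbound RNA of the other tissues. In unipolar brush neurons it read 7.62, 7.62 and 7.67, against 9.83 through 10.25 to 10.70 in unbound RNA (6-fold lower, adjusted p = 5.98e-11). In layer 5a neurons it read 6.61, 6.61 and 7.45, against 7.28 through 8.74 to 10.15 in cortical unbound RNA. The ranges met there, in that the highest TRAP array passed the lowest unbound array, which came from the layer 5a line itself (-1.86, adjusted p = 2.07e-07). This probe set is weak, and its calls depend on the scaling: with quantile normalization before centring, 7 populations were called lower and 1 higher.

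Rps6 went in both directions. Against the family it was called higher in cerebellar astrocytes (1.42) and Bergmann glia (1.20), and lower in Golgi (-2.09), Cck+, spinal cord cholinergic, granule and Purkinje neurons. TRAP values were 10.39, 10.41 and 10.42 in cerebellar astrocytes and 10.30 on each of the 3 Bergmann glia arrays, against 8.46 through 9.10 to 9.53 in unbound RNA. In Golgi neurons, which share those unbound arrays, they were 6.42, 6.56 and 6.75. The glial arrays lay above and the Golgi arrays below all unbound ones (5.75-fold lower in Golgi neurons, adjusted p = 2.14e-24). In Golgi neurons 70.4% of all genes were called lower, so much of that fold is not particular to Rps6. Relative to all genes tested, Rps6 was lowest in Drd2 neurons (-1.60) and not in Golgi neurons. In the spinal cord, cholinergic neurons read 7.49, 7.56 and 7.56, against 9.12, 9.37 and 9.52 in unbound RNA (-1.80, adjusted p = 3.74e-13). Cortical astrocytes read 9.82 to 10.14 on 4 arrays, against 7.80 through 8.48 to 8.77 in cortex (1.61, adjusted p = 4.15e-17), again without overlap. Quantile normalization before centring gave Rps6 called higher in 5 populations and lower in 1. When all single-symbol probe sets of a gene were averaged, Rps6 was called against the family in 0 populations. That setting brings in a second Rps6 probe set that lies under the expression minimum.

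**Figure D4:**
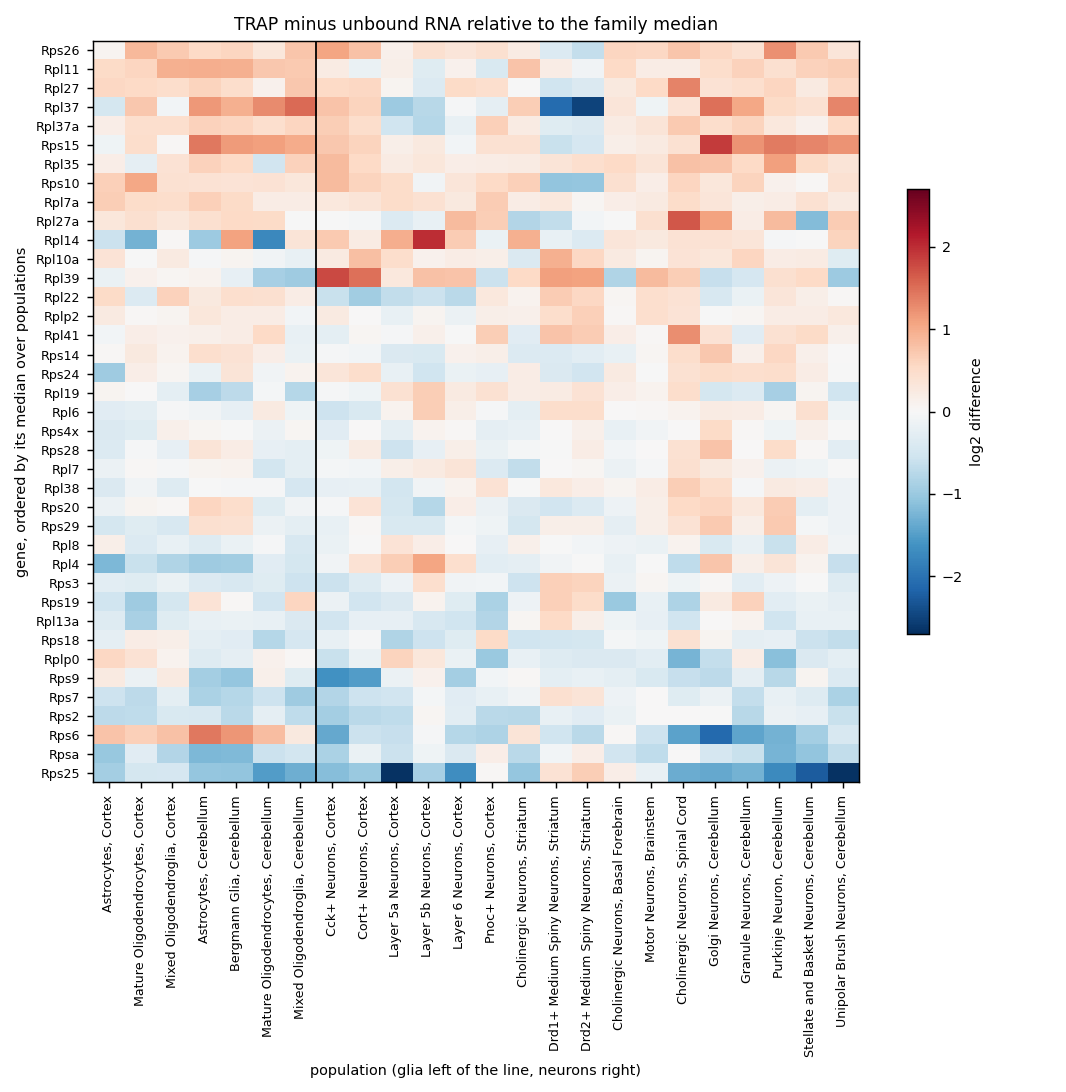
TRAP minus unbound RNA relative to the members' median (log2, colour) for the 39 members tested in all 24 populations, with glia left of the line and neurons right of it. Rps15 is above the family in all 9 cerebellar populations, Rps25 was called below it in 15 populations, and Rps6 stands at 1.42 in cerebellar astrocytes and -2.09 in Golgi neurons.

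Among the remaining weak members, Rps27 passed the expression minimum in 3 populations only and so had to differ there. It read 7.32, 7.39 and 7.39 in striatal cholinergic and 6.38, 6.48 and 6.48 in basal forebrain cholinergic neurons and 5.84, 5.84 and 6.94 in Golgi neurons, with unbound means of 4.21 in striatum, 5.14 in basal forebrain and 3.44 in cerebellum. Rpl14, also of the large subunit, was called in both directions. In layer 5b neurons it read 10.32, 10.33 and 10.55, against 7.53 through 8.56 to 9.47 in cortical unbound RNA (3.73-fold higher, adjusted p = 2.20e-07). In cerebellar mature oligodendrocytes it read 8.36, 8.38 and 8.87, against 9.67 through 10.18 to 11.38 (3.54-fold lower, adjusted p = 7.62e-07). Neither pair of ranges overlapped. Both genes were singled out after their values were seen. In 44 of the 939 tests, all TRAP arrays of the population lay within 0.001 log2 units of each other for that member.

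Glial and neuronal populations were compared within TRAP RNA alone, with each of 7 glial and 17 neuronal populations counted once. Some share a transgenic line: astrocytes, mature oligodendrocytes and mixed oligodendroglia each had a line used in both cortex and cerebellum. The cholinergic and brainstem motor populations all came from the Chat line. The p-values treat populations as independent and do not allow for this. Of 40 members, Rps6 alone was called, higher in glia (1 of 40, against 11.7% of all genes), and 0 were called lower (against 11.4%) by limma with Benjamini-Hochberg adjustment. Without the fold minimum 2 members passed, Rps6 and Rpl4 (5%, against 24.4% of all genes). The members' median difference, glia minus neurons, was 0.07, with 30 of 40 above the all-gene median of -0.09, and the other strong genes had a median of -0.24.

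Rps6 averaged 9.93 ± 0.33 in glial populations (SD, n = 7) and 8.16 ± 0.86 in neuronal ones (SD, n = 17). Glia ran from 9.50 through 9.84 to 10.41, and neurons from 6.58 through 7.95 to 10.08. The ranges overlapped because 2 neuronal populations, the cholinergic neurons of striatum (10.08) and basal forebrain (9.88), lay within the glial range. Both came from the Chat line. The difference was 1.76 (3.40-fold, adjusted p = 0.00112). It was 1.84 within cortex (adjusted p = 0.0619) and 2.25 within cerebellum (adjusted p = 0.0565), where the same direction no longer passed the threshold with fewer populations. Rpl4, a core protein of the large subunit, had a glia minus neuron difference of -0.83 (adjusted p = 0.00628), under the 2-fold minimum. Glia ran from 12.58 to 13.45 and neurons from 12.91 to 14.68, and 3 neuronal populations lay inside the glial range.

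**Figure D5:**
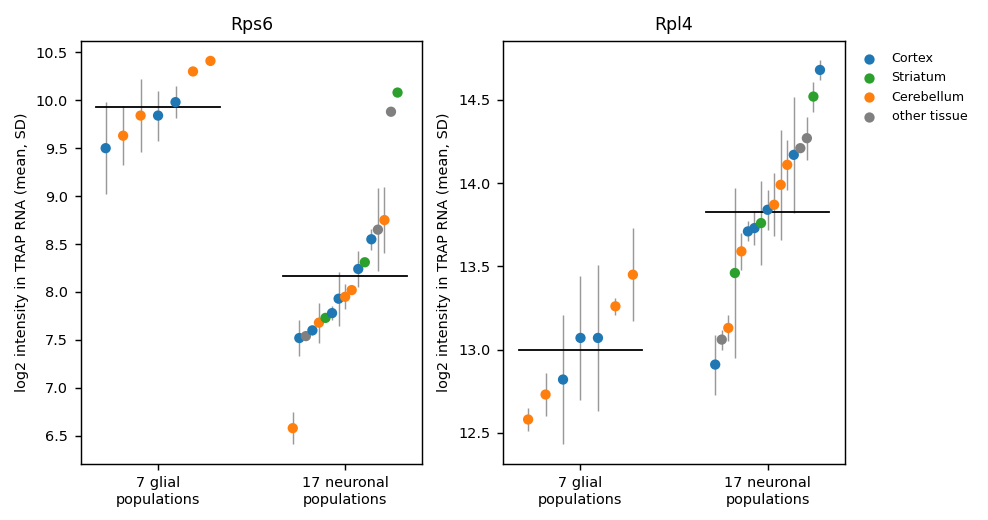
Mean TRAP level (log2, y axis) of Rps6 and Rpl4 in each of the 7 glial and 17 neuronal populations, coloured by tissue, with the SD between arrays as bars and the mean over populations as a line. For Rps6 the glial populations lie at 9.50 to 10.41 and 15 of the 17 neuronal ones below them. For Rpl4 the glial populations, at 12.58 to 13.45, reach from below the neuronal range of 12.91 to 14.68 into its low end.

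Other parts of the translation machinery were counted the same way, over all populations. Mitochondrial ribosomal proteins, the counterpart in the organelle, were called higher in 566 of 1821 tests (31.1%) and lower in 2.91%, against 18.4% and 32.4% over all genes. Other mRNAs known for a TOP start were called higher in 3.12% and lower in 27.1% of 288 tests. Among them Pabpc1, the poly(A)-binding protein, was called lower in 16 populations, Eif4b, a helper of the initiation helicase, in 15 and Hnrnpa1 in 14, while Tpt1 was called in 0. Initiation factors were called higher in 11.6% and lower in 19.5% of 1072 tests, ribosome biogenesis genes in 16.4% and 20.2% of 524, and cytosolic tRNA synthetases in 18.1% and 23.4% of 381. Respiratory chain and ATP synthase subunits were called higher in 15.8% and lower in 4.80% of 1667 tests, and proteasome subunits in 15.4% and 6.18% of 842.

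Elongation factors were called higher in 13.3% and lower in 20.8% of 120 tests. Eef1a2, the form of the tRNA-delivering factor used by mature neurons and muscle, was called higher in 6 populations, all neuronal, and lower in 6 glial and 2 neuronal ones. It averaged 7.81 in cortical astrocyte TRAP RNA, against 12.54 in cortical unbound RNA (26.7-fold lower, adjusted p = 6.40e-22). Its broadly used counterpart Eef1a1 was called in 2 populations, lower in both. Of the ribosomal protein relatives outside the rule, Rps27l, a paralogue of Rps27, was called higher in 14 of 24 populations and lower in 0, while Rps3a1 was called in 0 and Fau, whose product carries the ribosomal protein S30, was higher in 3 and lower in 1. Ribosomal protein genes read only through probe sets with several symbols gave 110 probe sets, 61 of them strong. After quantile normalization, their median relative to all genes was lowest in Drd1 and layer 5b neurons (-0.67 in both), with Drd2 neurons at -0.62. Mature oligodendrocytes stood at 0.35 in cerebellum and 0.20 in cortex, but mixed oligodendroglia stood near 0, at 0.01 in cerebellum and 0.08 in cortex.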

How the data were processed

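The 76 TRAP and 31 unbound samples were hybridized to Affymetrix arrays of 45101 probe sets. Per the labels' protocols and the submitters' processing notes, the authors amplified total RNA in a 2-cycle procedure, used a biotin label and made the values with GCRMA, normalizing the replicates of a group together; the GCRMA version is not given in the sources used here. The values as deposited are linear intensities, in 30 sets that share a lowest value. Here log2 was taken after a floor of 1, and each group was shifted so that 18 biotinylated control probe sets had equal means, as the series text recommends between groups. The deposited intensity values carry no depth, so the number of arrays limits the precision.

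Of the probe sets, 34958 carry 1 symbol, 932 several and 9211 none. Genes needed a mean of at least 6 in a compared group. A linear model with a coefficient for each TRAP population and for each tissue's unbound RNA was run in limma 3.58.1 (R 4.3.3, with version 1.17.8 of data.table), with eBayes and its trend option and Benjamini-Hochberg adjustment over all genes tested, on all arrays. The fit against the family first centred each array on the members' median. Glia and neurons were compared on population means. The model was tested on simulated data. P-values measure the spread between preparations that the series text calls independent, and for unbound RNA also that between lines. The replicates of a group were normalized together and shifted as a block, so an error shared by a whole group enters no p-value. In 44 of the 939 member tests the TRAP arrays were nearly identical. Small p-values and groups without overlap can therefore overstate how well a difference would repeat.

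Named genes were Rpl10a, the stalk genes and Rpsa, the 5 members with the highest, lowest and widest-ranging relative differences, those called against the family in at least 6 populations, and those called between glia and neurons. Rpl27 and Rpl27a also met this rule and are not described here. Rpl14, Rpl4, Rps27 and Rps3 fall outside this rule and were chosen after their values were seen. The members, gene lists and tests were chosen with earlier results of these data known. Replicate numbers shared by TRAP and unbound arrays of a line were checked for pairing in 9 populations: with 3 pairs, every pair's deviations correlated above 0.1 in basal forebrain (0.29 to 0.46) and brainstem (0.47 to 0.59), and not in spinal cord, Purkinje neurons or Bergmann glia. Alternatives were other scalings, filters, probe set rules and unbound arrays, a replicate block and leaving out replicates. Motifs were searched in RefSeq promoters of GRCm38.p6, where 37 members matched. Figures were drawn with matplotlib 3.10.9. The layer 5a driver gene is not reported here.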

Additional observations from a re-analysis of the deposited data

Results flagged for a closer look

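Of 85 gene and group values examined in groups of 4 to 9 arrays, 5 had an array that stood apart from the rest by Dixon's criterion, which chance alone meets in about 1 in 20 groups. Rps15 had a Purkinje TRAP array at 14.13, above the other 5 at 13.38 to 13.65. Rps2 had a cortical astrocyte TRAP array at 13.81, below the other 3 at 14.00 to 14.01. Rps2 also had a striatal unbound array at 14.10, below the other 5 at 14.70 to 14.77. In cortical unbound RNA Rpl37 had an array at 7.14, below the other 8 at 8.23 to 9.13, and Rps26 an array at 10.50, below the other 8 at 11.74 to 12.77.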

How the results depend on the processing

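The members' median relative to all genes depends on the weak genes in the background and on the scaling. With control-probe scaling it was -0.88 in Drd1, -0.83 in Drd2, -0.69 in layer 5a, -0.74 in layer 5b and -0.41 in layer 6 neurons, 0.90 and 0.94 in mature oligodendrocytes of cortex and cerebellum, 1.17 in Pnoc+ and 1.85 in Golgi neurons. Quantile normalization gave -0.65 in Drd1, -0.72 in Drd2, -0.32 in layer 5a, -0.62 in layer 5b, 0.43 and 0.58 in mature oligodendrocytes, 0.50 in Pnoc+ and 0.24 in Golgi neurons. Without the expression filter the values were -1.28, -1.21, -0.05, -0.29 and -0.01 (layer 6), 0.36, 0.15, 0.26 and 0.59. A comparison with the other strong genes was added after seeing the data. It gave -0.59 in Drd1, -0.55 in Drd2, -0.08 in layer 5a, -0.39 in layer 5b, 0.60 and 0.60 in mature oligodendrocytes, 0.46 in Pnoc+ and 0.27 in Golgi neurons. Averaging the probe sets of a gene gave -0.96 in Drd2, -0.78 in layer 5a, -0.78 in layer 5b and 1.01 in Pnoc+ neurons, and a minimum of 8 gave -0.78 in layer 5b. Unbound arrays of the same line alone gave -1 in Drd2, -0.82 in layer 5b, 1.54 and 0.63 in mature oligodendrocytes and 0.92 in Pnoc+ neurons. The sign turned in brainstem motor neurons (-0.19 with quantile normalization, -0.21 against strong genes), spinal cord cholinergic neurons (-0.06 and -0.02), Purkinje neurons (-0.23 and -0.22) and cerebellar astrocytes (-0.07 with quantile normalization). Leaving out replicates gave -0.83 to -0.72 in layer 5b (-0.79 without the TRAP arrays numbered 3) and 1.13 to 1.25 in Pnoc+ neurons. Why these values moved was not tested.

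For the counts of member tests, no further scaling gave 95 lower (10.1%, against 31.7% over all genes). Median centring gave 357 higher (38%, against 24.7%), and no fold minimum 289 higher and 177 lower. Members with a mean of at least 12, added after seeing the data, gave 50 higher (6.31%, against 11.2% over genes that bright) and 27 lower (3.41%, against 15.4%). Against the family, averaged probe sets gave 8 higher (0.871%, against 13.1%) and 150 lower (16.3%, against 41.5%). Quantile normalization before centring gave 69 higher (7.32%, against 24.3%). Rpl10a was then higher in 4 and lower in 11 populations with averaged probe sets, lower in 0 with unbound arrays of the same line, where the full unbound set gave 1, and higher in 7 to 13 and lower in 1 to 3 when replicates were left out. Between glia and neurons, no further scaling called 2 members higher, and cortex or cerebellum alone called 0. Medium spiny against cholinergic neurons gave 36 lower under median centring (against 32.1% of all genes) and under no further scaling. Leaving out a TRAP replicate of every population or an unbound array of every tissue gave 68 to 101 member tests called higher and 43 to 58 lower. With the replicate number as a block in the 9 populations that allow it, 16 of 353 member tests were called higher and 30 lower, as without it. Over all genes, 16428 tests were called higher with the block and 16021 without it, and 30802 and 30693 lower. Where no share over all genes stands beside a count here, the count is not to be read as particular to the members.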
